A study of Mus musculus with 78 samples.

Results

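Chromatin regions that carried HA-EZH1 in all 3 replicates at 24 h after synchronization were divided by whether they lay in H3K27me3 chromatin of the same time. A region was a stretch covered by a peak of each of the 3 HA-EZH1 lists, and 2090 such regions were found, with a median length of 389 bp and 999 kb of sequence in all. Of these, 244 (11.7%) overlapped by at least 1 bp a stretch covered by all 3 H3K27me3 lists and are called inside, and 1812 (86.7%) touched no H3K27me3 peak of any list and are called outside. The number of regions depended on the demand for all 3 libraries, since 13.0% to 15.8% of the peaks of a library lay in them. Without replicate 1, 2 or 3 of HA-EZH1 there were 3797, 3446 and 3777 regions, of which 464, 403 and 427 were inside and 3240, 2967 and 3263 outside. The remaining 34 of the 2090 touched a peak of only 1 or 2 lists, or pieces of peaks that did not coincide, and are left apart. The study holds 72 peak lists of 4 profiles (HA-EZH1, Bio-EZH1, SUZ12 and H3K27me3), each with 3 biological replicates at 12, 16, 20, 24, 28 and 32 h. All libraries are from C2C12, a line of mouse myoblasts able to form myotubes. By the study's general methods, the cells were differentiated into myotubes and then synchronized by a horse serum shock. The study describes HA-tagged EZH1α, the nuclear isoform, in stable Ezh1 knockdown cells, both as an inducible construct and as a constitutive FLAG-HA construct. The labels of the HA-EZH1 libraries give the cell line only, without an antibody or a modified line, so which of these was used is not known here. H3K27me3 was profiled in wild-type C2C12 with an antibody and Drosophila spike-in chromatin, so that the tag and the mark were not read in the same cultures. Bio-EZH1 is EZH1α with a biotinylated Avi tag in shEzh1 cells that also express the BirA ligase. SUZ12 was, by the study's methods, profiled in those cells too, and for both the chromatin was cross-linked in a pair of steps. The labels give the tissue as skeletal muscle although the samples are a cultured line. Peak lists hold no RNA, so the cell type could not be checked by expression.

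EZH1 is 1 of the alternative catalytic subunits of Polycomb repressive complex 2 (PRC2), which places methyl groups on lysine 27 of histone H3. SUZ12 is a core subunit of PRC2, whichever catalytic subunit it holds. H3K27me3 marks silenced developmental genes such as Hox clusters in many cell types, and EZH1 is the catalytic subunit that stays expressed in cells that no longer divide, such as myotubes. EZH1 has also been described at active genes in differentiating muscle cells, which is why its places with and without the mark are of interest.

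The strongest regions of each class are shown by the middle 300 bases of each, 2 within 3 kb of a protein-coding transcription start site (TSS) and 2 farther away, read from the plus strand of mm10. Windows made mostly of soft-masked repeats were passed over. Capitals mark matches on either strand to the motifs that are counted further on, among them AP-1 (TGACTCA), TEAD (CATTCC), RUNX (ACCACA), the nuclear receptor element (AGGTCA) and a ZNF143 core (CTACA, any 3 bases, then CCCA).
Hdac8 (inside, near a TSS), chrX:102505247-102505546: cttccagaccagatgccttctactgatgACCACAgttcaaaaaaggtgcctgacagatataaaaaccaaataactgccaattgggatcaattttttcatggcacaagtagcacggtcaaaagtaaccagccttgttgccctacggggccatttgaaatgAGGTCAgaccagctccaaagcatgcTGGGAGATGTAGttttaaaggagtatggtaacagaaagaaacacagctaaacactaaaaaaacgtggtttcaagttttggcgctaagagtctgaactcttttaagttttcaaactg
Gm17174 (inside, near a TSS), chr14:51593131-51593430: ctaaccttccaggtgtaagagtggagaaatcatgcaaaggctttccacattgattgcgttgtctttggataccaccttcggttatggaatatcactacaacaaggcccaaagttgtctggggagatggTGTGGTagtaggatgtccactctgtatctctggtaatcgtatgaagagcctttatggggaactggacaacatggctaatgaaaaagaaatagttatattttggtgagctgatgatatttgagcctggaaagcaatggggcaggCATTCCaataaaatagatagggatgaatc
Gnao1, first region (inside, beyond 3 kb), chr8:93747586-93747885: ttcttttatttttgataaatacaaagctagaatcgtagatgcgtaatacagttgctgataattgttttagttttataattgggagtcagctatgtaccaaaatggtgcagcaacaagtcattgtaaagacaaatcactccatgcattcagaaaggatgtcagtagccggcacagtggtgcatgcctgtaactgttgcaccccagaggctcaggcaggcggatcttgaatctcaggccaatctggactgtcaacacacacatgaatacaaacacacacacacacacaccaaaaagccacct
Gnao1, second region (inside, beyond 3 kb), chr8:93750814-93751113: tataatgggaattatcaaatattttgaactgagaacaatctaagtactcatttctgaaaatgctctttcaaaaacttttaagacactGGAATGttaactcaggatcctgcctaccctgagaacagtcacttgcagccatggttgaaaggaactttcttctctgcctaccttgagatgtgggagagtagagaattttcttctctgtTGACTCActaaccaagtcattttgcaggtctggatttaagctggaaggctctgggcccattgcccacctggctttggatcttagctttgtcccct
Gtf2h4 (outside, near a TSS), chr17:35673599-35673898: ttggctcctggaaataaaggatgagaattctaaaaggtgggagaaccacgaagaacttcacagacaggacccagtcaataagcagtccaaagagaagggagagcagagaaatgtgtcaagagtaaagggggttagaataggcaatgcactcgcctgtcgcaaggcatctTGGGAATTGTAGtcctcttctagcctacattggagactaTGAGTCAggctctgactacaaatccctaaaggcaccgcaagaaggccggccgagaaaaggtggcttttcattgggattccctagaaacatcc
Nudt13 (outside, near a TSS), chr14:20294321-20294620: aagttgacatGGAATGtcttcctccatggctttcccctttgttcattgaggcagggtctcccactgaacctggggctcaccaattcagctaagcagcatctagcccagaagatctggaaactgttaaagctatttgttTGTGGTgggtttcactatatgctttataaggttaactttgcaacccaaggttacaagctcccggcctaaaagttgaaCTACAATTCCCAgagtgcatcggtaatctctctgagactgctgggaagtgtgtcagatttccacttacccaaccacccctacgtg
Tex14, U1 snRNA locus (outside, beyond 3 kb of a protein-coding TSS), chr11:87423158-87423457: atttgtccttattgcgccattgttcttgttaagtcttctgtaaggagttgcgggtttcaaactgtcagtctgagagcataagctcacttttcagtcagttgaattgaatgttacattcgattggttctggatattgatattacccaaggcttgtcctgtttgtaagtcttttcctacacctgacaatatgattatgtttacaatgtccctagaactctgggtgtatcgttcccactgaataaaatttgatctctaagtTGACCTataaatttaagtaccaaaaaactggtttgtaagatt
Tpd52 (outside, beyond 3 kb), chr3:8971721-8972020: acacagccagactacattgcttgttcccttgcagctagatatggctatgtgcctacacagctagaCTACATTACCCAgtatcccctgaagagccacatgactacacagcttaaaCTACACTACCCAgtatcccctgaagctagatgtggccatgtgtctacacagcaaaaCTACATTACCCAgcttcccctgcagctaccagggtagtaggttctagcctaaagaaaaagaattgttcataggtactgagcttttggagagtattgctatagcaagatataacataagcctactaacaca
Matches to the ZNF143 core were present in 4 of these 8 windows, namely Hdac8, Gtf2h4, Nudt13 and Tpd52, the last with 3 of them. The window in the first Gnao1 region held none of the 12 motifs searched.

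At 24 h, few HA-EZH1 peaks lay in H3K27me3 chromatin, in contrast to peaks of the same isoform with the other tag. In the 3 HA-EZH1 libraries 12.0%, 13.4% and 13.4% of 12791, 15008 and 12433 peaks overlapped a common H3K27me3 region, with a mean of 12.9% ± 0.829 (SD, n = 3). In the 3 Bio-EZH1 libraries of 24 h the share was 86.1%, 87.9% and 88.1%, with a mean of 87.4% ± 1.15 (SD, n = 3). The groups did not overlap and differed by 74.5 percentage points, with p = 0.10 in an exact two-sided permutation test, the smallest that 3 against 3 libraries allow. Common H3K27me3 regions covered 7.82% of the genome, and 12.4% of the bases of HA-EZH1 regions lay in them. Of the common regions of Bio-EZH1, 93.6% of 9522 were inside H3K27me3, and of those of SUZ12, 87.4% of 19912. Seen from the mark, 163 of 43900 common H3K27me3 regions (0.371%) held an HA-EZH1 region, whereas 20.4% held SUZ12 and 10.1% held Bio-EZH1.

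The share at 24 h was the lowest of the 6 time points, closely followed by those at 20 h and 28 h. Against H3K27me3 of its own time, it was 25% ± 2.14 at 12 h and 26.9% ± 0.843 at 16 h (SD, n = 3). At 20 h it came to 13.3% ± 1.17 and at 28 h to 14.6% ± 1.47. By 32 h the mean was 22.8% ± 1.35. The 24 h libraries overlapped in value with those of 20 h and 28 h and lay below all libraries of 12, 16 and 32 h. Between 24 h and the 15 libraries of the other times the means differed by -7.60 percentage points, with p = 0.0417 and, adjusted over 5 measures, p = 0.104 (exact two-sided permutation test), so the difference did not pass after adjustment. Libraries of 1 time share that time, and a test with the time point as its unit cannot pass the threshold for a single time against 5.

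**Figure D1:**
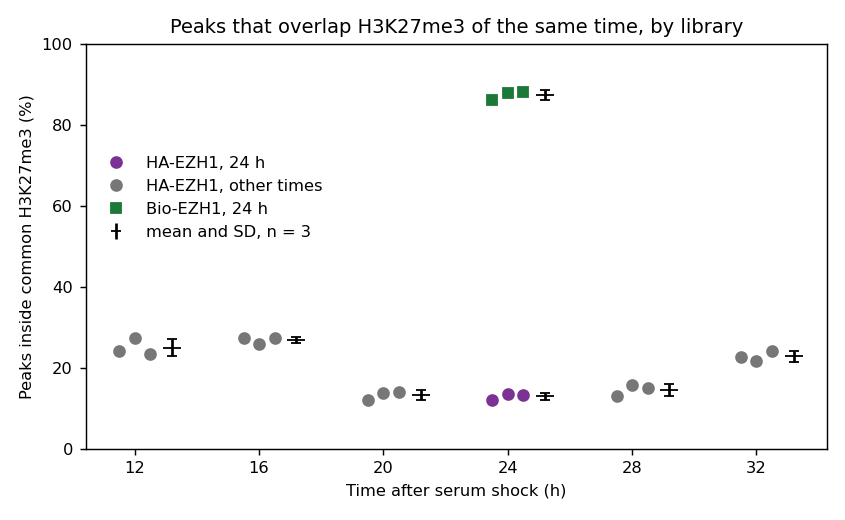
Percent of the peaks of each library that overlap a common H3K27me3 region of the same time (y axis) against hours after the serum shock (x axis); points are libraries, and the bars give the mean and SD of 3. HA-EZH1 libraries of 24 h sit between 12.0% and 13.4%, at the level of 20 h, and Bio-EZH1 libraries of 24 h between 86.1% and 88.1%.

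The classes differed little in HA-EZH1 enrichment itself. Fold is the enrichment over background that MACS2 gives for each peak, and that of a region is the highest among the peaks of a library that overlap it. Median folds inside were 3.35, 3.28 and 3.31 in the 3 replicates, and 3.40, 3.22 and 3.31 outside. In all 3 libraries, taken over all peaks, the median fold was the same in both classes (3.07, 2.91 and 2.99). Folds were heavily tied, with 1332 to 1459 distinct values among the peaks of a library. Over the 6 time-point means the difference of median log2 fold, inside minus outside, was 0.02, with p = 0.375 (exact sign-flip permutation test, also 0.375 when adjusted over 4 measures), and it was above 0 at 3 of 6 times. The highest mean fold was 14.0 outside and 6.23 inside. When the 2090 regions were ranked by mean fold into 5 equal groups, the share inside was, from the weakest to the strongest, 10.5%, 12.2%, 11.2%, 9.33% and 15.1%, without a steady rise.

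**Figure D2:**
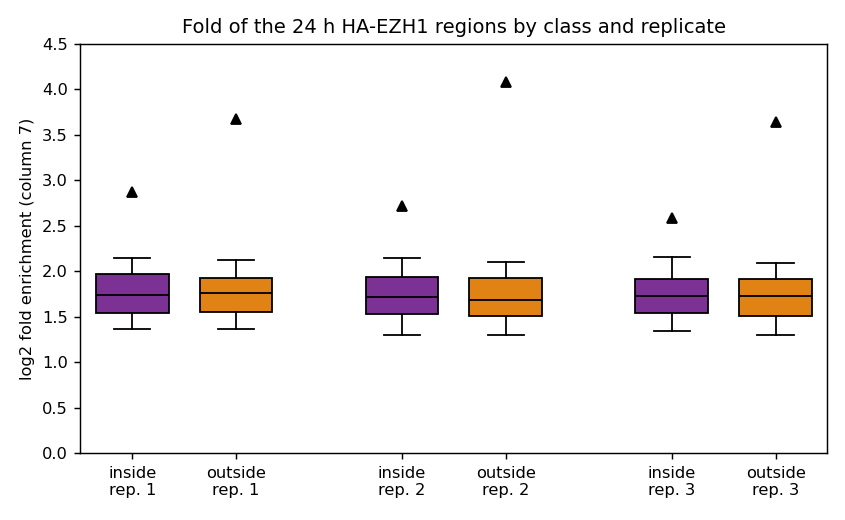
log2 fold enrichment (y axis) of the 244 inside and 1812 outside regions in each of the 3 HA-EZH1 24 h replicates; boxes give quartiles and median, whiskers the 10th and 90th percentiles, and triangles the highest value. Boxes of the classes coincide in each replicate, and the highest regions of all 3 replicates are outside.

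The classes differed in the presence of other PRC2 profiles. A common SUZ12 region of 24 h overlapped 197 of the 244 inside regions (80.7%) and 9 of the 1812 outside regions (0.497%). Bio-EZH1 of 24 h overlapped 134 inside regions (54.9%), all of them with SUZ12, and 2 outside regions (0.110%). Neither was found at 47 inside regions and at 1802 outside regions. SUZ12 and Bio-EZH1 regions themselves lay mostly in H3K27me3, as given above, and 20.4% and 10.1% of all common H3K27me3 regions held one. A higher overlap inside than outside thus came with the division itself, and the tests below cannot show a tie of HA-EZH1 to these profiles. That these lists are of SUZ12 rests on the labels, since their deposited names could also be read as streptavidin. Per library, peaks inside overlapped SUZ12 in 60.0% ± 1.68 of cases and peaks outside in 0.534% ± 0.00719 (SD, n = 3). Over the 6 times the difference was 73.2 percentage points for SUZ12 and 55.6 for Bio-EZH1. Both were above 0 in 18 of 18 libraries, with p = 0.03125, the smallest that an exact sign-flip permutation test over 6 times gives, and p = 0.0625 adjusted over 4 measures. With the 2000 peaks of the lowest q in each library the differences were 81.9 and 56.4 points and passed, at an adjusted p of 0.03125 (exact permutation test).

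Inside regions with SUZ12 and Bio-EZH1 had a higher median H3K27me3 fold than those with neither, without a test. The median H3K27me3 fold was 3.85 at the 134 regions with both, 3.15 at the 63 with SUZ12 without Bio-EZH1 and 2.86 at the 47 with neither. Their median HA-EZH1 fold ran from 3.26 to 3.38, and their CpG density fell from 1.07 to 0.578 per 100 bp in the same order of classes. The 244 inside regions lay in 163 H3K27me3 regions, and neighbours in the same one share its fold, so they are not separate observations. The 134 include 18 near Gnao1, where an H3K27me3 region with 14 HA-EZH1 regions has the fold 3.85 itself. HA-EZH1 regions sat in long H3K27me3 regions: those that held one had a median length of 11123 bp, and those without one 2047 bp. A longer region has more room for an overlap. Per Mb of H3K27me3, the number of H3K27me3 regions that held an HA-EZH1 region ran between 0.705 and 0.918 over 4 length classes, without an order by length. An H3K27me3 region with several HA-EZH1 regions counts once there, and 39 of the 163 held 2 or more, so the density of HA-EZH1 regions by length is not given. The SUZ12 share of these length classes ran from 4.17% under 1 kb to 77.0% at 20 kb or more. Of the 244 inside regions 224 were wholly covered by H3K27me3, and the median distance of their centres to an edge of it was 3839 bp. At the other side of the division, outside regions were mostly far from the mark, with a median distance of 101840 bp to the nearest H3K27me3 peak, and 30 of 1812 were within 1 kb of one.

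At the other times, H3K27me3 was found again at most inside regions, and HA-EZH1 at fewer. Of the inside regions, 98.8% had a common H3K27me3 region at 12 h and 86.5% at 32 h, the highest and lowest of the other times, and 193 of 244 (79.1%) had one at all 5. Outside regions had one in 3.37% of cases at 12 h and in 0.276% or less at each other time. HA-EZH1 itself was found again at 20 h at 48.4% of inside and 41.9% of outside regions, at 28 h at 2.05% and 3.81%, and at 16 h at 61 of 244 inside and 192 of 1812 outside regions. At no other time was it found at 107 inside regions (43.9%) and 997 outside regions (55.0%). Lists of 28 h are short, with 761 common regions against 2567 at 20 h, and the part of list length in these shares was not tested. The regions were chosen at 24 h, and only 13.0% to 15.8% of the peaks of a 24 h HA-EZH1 library lay in regions of all its replicates. A change over time therefore cannot be told apart from weak agreement between replicates.

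**Figure D3:**
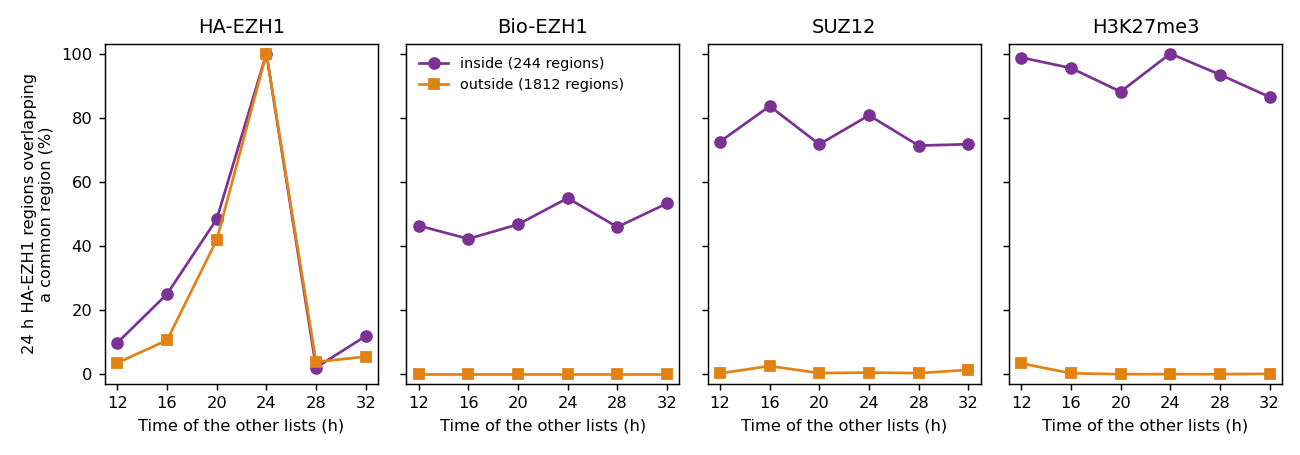
Percent of 24 h HA-EZH1 regions that overlap a common region (y axis) of each profile at each time (x axis, h), for 244 inside and 1812 outside regions. Inside regions meet SUZ12 in 71.3% to 83.6% and Bio-EZH1 in 42.2% to 54.9% of cases at every time, outside regions in at most 2.54% and 0.110%. HA-EZH1 itself falls to 2.05% and 3.81% at 28 h.

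Most regions of either class were away from gene starts. Of the inside regions, 15 of 244 (6.15%) had their centre 1 kb or less from an annotated TSS, 9 in another exon, 98 (40.2%) in an intron and 122 between genes. Outside, 132 of 1812 (7.28%) were at a TSS, 61 in an exon, 839 (46.3%) in an intron and 780 (43.0%) between genes. On a grid over the genome, 3.85% of positions were within 1 kb of a TSS, and 5.87% in H3K27me3 regions. The median distance to a TSS was 14864 bp inside and 21645 bp outside, and 13858 bp and 23007 bp at grid positions within and away from common H3K27me3. Over all peaks of the 24 h libraries, 3.58% ± 0.288 of those inside and 3.46% ± 0.167 of those outside were at a TSS (SD, n = 3), whereas at 12 h the values were 42.0% ± 2.81 and 74.4% ± 2.08. The difference inside minus outside was thus 0.12 points at 24 h and -32.4 at 12 h, and it averaged -9.95 over the 6 times, with p = 0.125 in the exact sign-flip permutation test and 0.167 adjusted. For 24 h against the other times it gave p = 0.105 and 0.132 adjusted (exact permutation test).

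The kinds of genes at these starts were alike. Of the 132 outside regions at a TSS, 60 (45.5%) were at a protein-coding gene and 24 (18.2%) at a small RNA gene, and of the 15 inside regions 7 (46.7%) and 3 were. Small RNA genes make up 11.3% of gene records. Base composition was alike, with a median G+C of 42.0% inside and 42.5% outside, and few regions reached 4 CpG per 100 bp (2 inside and 22 outside). Soft-masked repeats made up a median 17.6% of inside and 10.5% of outside regions.

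Among inside regions the highest fold was at a repeat-rich stretch of Snhg14, the long noncoding transcript that hosts imprinted small nucleolar RNAs next to Ube3a, a ubiquitin ligase gene. Its folds were 7.34, 5.36 and 5.99 (chr7:59416993-59419300), it was within 1 kb of a snoRNA gene, and 91.0% of its bases were soft-masked. The next was 62231 bp from the TSS of Gnao1, which encodes a G protein alpha subunit known from neurons, with folds of 5.29, 6.58 and 5.83 (chr8:93745372-93750099), and it is the first Gnao1 sequence above. It was an HA-EZH1 region at all 6 times and carried both SUZ12 and Bio-EZH1. Around Gnao1 lay 21 inside regions, all 21 with SUZ12 and 18 with Bio-EZH1, and a single H3K27me3 region of 48982 bp there held 14 of them. Others of the strongest 12 were near Vldlr (mean fold 5.22), a lipoprotein receptor gene, in an intron of Inpp4b (5.04), a lipid phosphatase gene, near Igf2bp3 (4.52), an RNA-binding protein gene, and 71995 bp from Atoh1 (4.60), a neural transcription factor gene. Of the 12, 10 carried SUZ12 and 8 Bio-EZH1. Several of the 12 lay near Gnao1, and some of these had the same fold of 5.29 in replicate 1, since a wide peak of a library can be cut into several regions. These counts are therefore not of separate loci.

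Only 9 protein-coding genes had an inside region within 3 kb of their TSS, 0.0414% of 21755, and 35 of all 53843 annotated genes did (0.065%). The strongest was Hdac8, a histone deacetylase gene on chromosome X, with folds of 4.56, 5.58 and 4.41 and a region centre 37 bp from the TSS, without SUZ12 or Bio-EZH1 (its sequence is above). Neurod6, a neuronal basic helix-loop-helix factor gene, had folds of 2.43, 3.98 and 3.15 and carried both profiles. Calhm4 and Olfr371, an olfactory receptor gene, carried SUZ12, and Gm17174, P2ry10b, Scoc, Zc4h2 and Xlr carried neither. Mean folds of these 9 ran from 2.28 at Xlr to 4.85 at Hdac8.

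Outside regions were at 104 protein-coding genes within 3 kb of the TSS (0.478%) and at 272 of all annotated genes (0.505%). With the regions left apart, 114 protein-coding (0.524%) and 310 annotated genes (0.576%) had an HA-EZH1 region of any class. The highest fold of all was in Tex14 at the U1 snRNA gene Rnu1a1, with 12.8, 16.9 and 12.5 in the 3 replicates (chr11:87422564-87424051), and another snRNA gene in Tex14 had a mean of 8.65. An snRNA gene also lay within 1 kb of the region near Kif2c (7.71), a mitotic kinesin gene. The Tex14 regions were among the 9 outside regions with SUZ12. Gtf2h4, which encodes a subunit of the transcription factor TFIIH, had folds of 10.2, 8.30 and 7.77, and Nudt13, a nudix hydrolase gene, 10.1, 8.72 and 7.48, each with a region centre less than 1 kb from the TSS. An intron of Tpd52 had 8.93, 9.36 and 7.76, and introns of Rag2, a recombinase gene of lymphocytes, and of Map4, a microtubule-associated protein gene, had means of 6.79 and 6.19. The rest of the strongest 12 were near Gm4340, AL731706.1, Kcnh8 and Tnfsf11, with means between 5.73 and 7.67. Interferon-inducible genes were also present, with Gbp2 at 5.49, 5.17 and 5.72 and Ifi211 at 2.93, 7.78 and 6.16, the latter with a wide spread between replicates. Col3a1, a fibrillar collagen gene, had 4.95, 4.13 and 4.73. Others of the strongest promoters were Nat2, Zfp933, Cwf19l2, Cp, Gtf3c6 and Vps50, with mean folds between 4.62 and 5.56.

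Genes listed by function often had the mark, and few had HA-EZH1, as was the case for protein-coding genes as a whole. Of 484 genes in 18 lists by function, 193 had a common H3K27me3 region within 3 kb of the TSS, against 24.9% of protein-coding genes, and 151 had SUZ12 and 172 Bio-EZH1, against 9.21% and 11%. HA-EZH1 regions inside H3K27me3 were there at 0 of the 484 and outside regions at 5 (1.03%). With 0.0414% and 0.478% of all protein-coding genes, counts at or near 0 in a list of this size, and in each list below, say nothing particular about it. Of 39 Hox genes 21 had H3K27me3, 21 SUZ12 and 21 Bio-EZH1, and 0 had HA-EZH1, and the closest region, by the gap between its edge and the TSS, was 9451 bp from Hoxb1, inside H3K27me3 with both other profiles (mean fold 3.08). Of 79 developmental transcription factors 56 had H3K27me3 and 1, Runx2, had an outside region (3.75, 4.02 and 3.98), Runx2 being the regulator of bone formation. Of 30 developmental ligands 24 had the mark and 0 had HA-EZH1, and of 22 neural lineage genes 14 and 0. Of 40 sarcomere genes 15 had the mark, and the start of Ttn, the giant elastic protein of the sarcomere, had outside regions with a highest mean fold of 3.74. The other 3 were Col3a1, Col5a2 (2.79) and Dcn (2.40), which encode 2 collagens and the matrix proteoglycan decorin. The core clock list of 23 genes had 0, and its closest region lay 45734 bp from Nr1d1, a clock repressor gene. From ChIP-seq of HA-tagged EZH1α at different times, the study reports a direct association with Bmal1, Per1 and Per2. The count here asks for a peak of every replicate at 24 h within 3 kb of the TSS, so the 2 are not alike. PRC2, PRC1, Notch, TGF-beta, cell cycle, RNA polymerase II, insulin, myogenic and excitation lists also had 0, as had the housekeeping list, and the closest regions of the first 9 were 20898 bp from Lcor, 43686 bp from Pcgf5, 35705 bp from Rbpj, 12112 bp from Fst, 11767 bp from Ccne2, 95820 bp from Polr2k, 21839 bp from Igf1, 4342 bp from Myf6 and 99234 bp from Trdn. For developmental ligands and neural genes the closest were 114021 bp from Bmp2 and 48974 bp from Gad2. TT-seq measures new transcription, and 1 of 1215 genes that peak in it at 16 h had an inside region within 3 kb and 8 had an outside region. Of 944 genes lowest in it at 24 h, 0 and 3 did. These shares (0.0823% and 0.658%, then 0 and 0.318%) were near those of all protein-coding genes. Those gene sets come from the study's own cells and are no independent evidence of a direction.

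By nearest gene at any distance, here measured from region centres, matrix genes were often the closest to outside regions, though many were far from them. The nearest protein-coding gene was 1 of 143 genes (0.657%) for inside regions and 1 of 980 (4.5%) for outside regions. In the list of extracellular matrix and adhesion genes 15 of 35 (42.9%) were nearest to an outside region and 0 to an inside region. This was the highest outside share of the 18 lists, which together had 10.3%. With 0.657% of all protein-coding genes, 0 inside in a list of this size says nothing particular. The closest outside region of these 15 genes was 705 bp away at Col3a1 and up to 221486 bp away, at Lama2. Among them Thbs1, which encodes thrombospondin, had 12 regions from 17853 bp on, Col3a1 had 5, and Fn1, the fibronectin gene, had 4 from 110382 bp on. Dcn had 7 outside regions, Ttn 5, and Myf6, a myogenic regulator also called MRF4, had 2 from 4507 bp on. Long stretches without other genes make a gene nearest to more regions, and how far spacing sets these counts was not tested. Igf1r, the receptor of insulin-like growth factor, had 3 inside regions, all with SUZ12, and among Hox genes Hoxb1, Hoxb13 and Hoxc13 were nearest to 1 each.

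Regions were unevenly spread over the chromosomes. Chromosome 15 held 414 regions, 3.98 per Mb, and chromosome 8 held 227, 1.75 per Mb, against a median of 0.659 and a lowest value of 0.165, on chromosome 7. Of the inside regions 75 (30.7%) were on chromosome 8, and of the outside regions 372 (20.5%) were on chromosome 15. In the HA-EZH1 24 h libraries 19.5% ± 0.173 of peaks were on chromosome 15, in those of SUZ12 7.06% ± 0.182 and in those of H3K27me3 3.73% ± 0.112 (SD, n = 3), and its length is 3.95% of the genome. Between 80 and 94 Mb of chromosome 8, a stretch chosen after its counts were seen, lay 171 regions, 66 of them inside. That stretch took 4.38% ± 0.141 of HA-EZH1, 1.87% ± 0.0880 of Bio-EZH1, 1.12% ± 0.0352 of SUZ12 and 0.858% ± 0.0269 of H3K27me3 peaks at 24 h, for 0.532% of the genome. At the other times its HA-EZH1 share ran from 2.09% at 12 h to 5.05% at 20 h. Genes nearest to many outside regions were accordingly Il15 on chromosome 8 (26 regions), a cytokine gene, and Asap1 (20), Angpt1 (17), Has2 (15) and Myc (15) on chromosome 15, Has2 being a hyaluronan synthase gene. Copy number and mappability of these stretches were not tested. Without chromosomes 8 and 15, 135 of 1449 regions (9.32%) were inside.

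**Figure D4:**
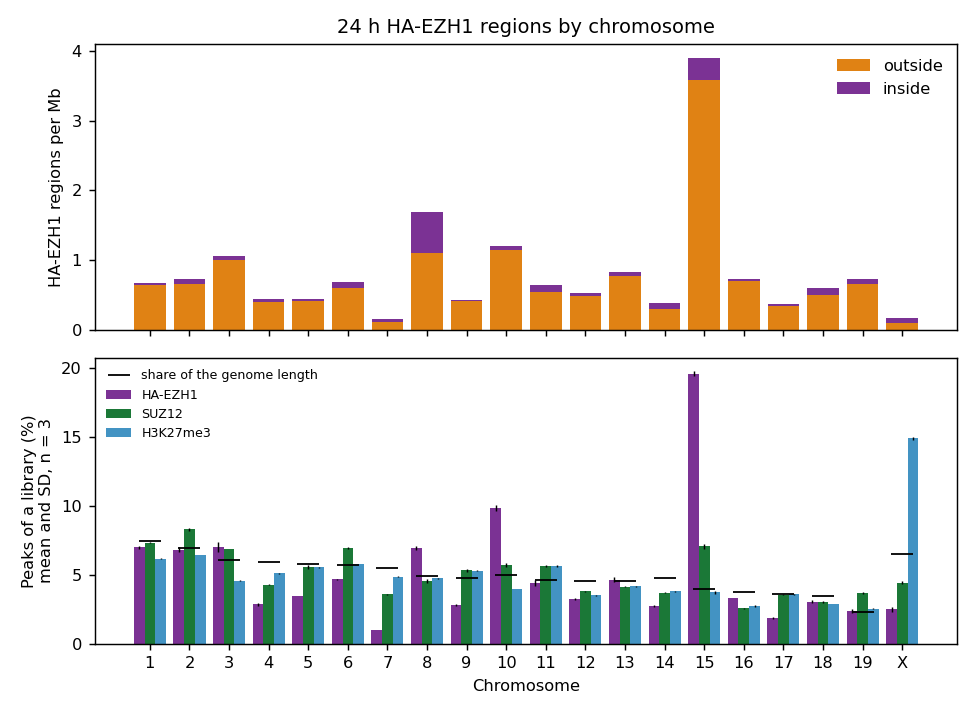
Top, HA-EZH1 24 h regions per Mb (y axis) on each chromosome, with outside and inside regions stacked; bottom, percent of the peaks of a library on each chromosome (mean and SD of 3 libraries) for HA-EZH1, SUZ12 and H3K27me3 at 24 h, with the share of the genome length as a line. Chromosome 15 stands out with 19.5% of HA-EZH1 peaks for 3.95% of the genome.

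Shares of some short sequences at the centres differed between the classes, and within the inside class they differed by the presence of SUZ12. In windows of 300 bases, the AP-1 element TGACTCA, bound by Fos and Jun proteins, was found in 14.5% of 1812 outside and 6.97% of 244 inside regions, in 5.57% and 4.30% of windows 2 kb to either side, in 5.20% of 32851 RefSeq promoter windows (GRCm38) and in 3.58% of SUZ12 regions. It was in 14.9% of outside regions beyond 1 kb of a TSS and in 9.09% of those at a TSS. The RUNX element ACCACA was in 490 of 1812 windows outside and 19.3% inside, with 21.9% and 20.5% in the flanks and 16.8% of promoters. The myogenic E-box CAGCTG, a site of MyoD family factors, was in 17.6% and 13.5%, with 10.3% and 10.5% in the flanks and 16.3% of promoters, and the TEAD element CATTCC was in 22.7% and 19.7%, with 16.9% and 15.4% in the flanks and 14.7% of promoters. The other motifs were the clock E-box CACGTG (3.15% outside, 3.28% inside, 7.15% of promoters), the MEF2 core TAAAAATA (4.30%, 4.51%, 2.72%), the GC-box GGGCGG (2.65%, 2.46%, 35.7%), the CTCF core AGGGGGC (1.93%, 3.28%, 10.6%), the ETS element CCGGAAG (0.938%, 0.410%, 8.86%) and the C/EBP element TTGCGNAA (0.497%, 1.23%, 0.798%), with outside, inside and promoters in that order, and the nuclear receptor element AGGTCA was in 19.4%, 15.6% and 16.3%. In the flanks the MEF2 core was in 6.35% outside and 8.20% inside, more than at the centres. Flank shares, outside then inside, were 2.62% and 3.07% for the clock E-box and 1.93% and 1.64% for the GC-box. They were 1.99% and 2.46% for CTCF, 0.524% and 0.615% for ETS and 0.221% and 0.410% for C/EBP. For AGGTCA they were 15.8% and 14.8%. Both strands were searched, and a window can hold several motifs. Of the 197 inside regions with SUZ12, 6.09% held AP-1, 16.8% RUNX, 16.8% TEAD and 14.7% the myogenic E-box. Of the 47 without SUZ12, 10.6%, 29.8%, 31.9% and 8.51% did. Neighbouring inside regions, as around Gnao1, are not separate observations. These shares are descriptions without a test, and a match is not a bound site.

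The ZNF143 core, CTACA and CCCA with any 3 bases between them, was added to the search after the sequences above had been seen. ZNF143 (Zfp143 in mouse) is an activator of snRNA genes and of many protein-coding promoters. The core was in 40 of 1812 outside (2.21%) and 4 of 244 inside regions (1.64%), in 0.331% and 0.205% of flanking windows, in 1.90% of promoters and in 0.321% of SUZ12 regions. It was in 26 of the 132 outside regions at a TSS (19.7%) and in 14 of the 1680 beyond (0.833%). Of the 41 outside regions with HA-EZH1 at all 6 times 19 (46.3%) held it, and of the 997 found at no other time 5 did (0.502%). Most of those 41 lay within 1 kb of a TSS. By time, it was in 16.5% of common HA-EZH1 regions at 12 h, 11.4% at 16 h, 2.30% at 20 h, in 46 of 2090 at 24 h, and in 17.1% at 28 h and 17.4% at 32 h.

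**Figure D5:**
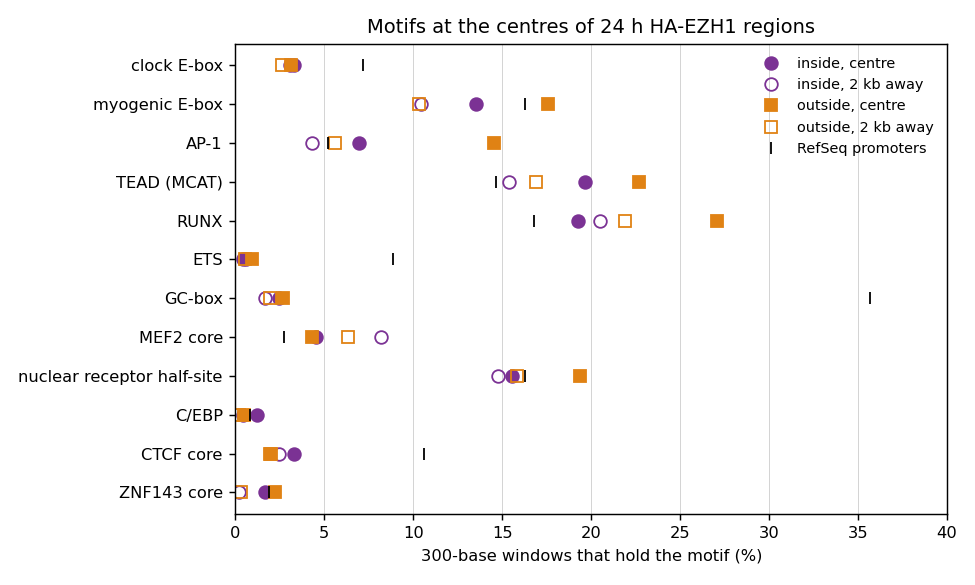
Percent of 300-base windows (x axis) that hold each of 12 motifs (y axis) at the centres of inside and outside regions, in windows 2 kb to either side and in RefSeq promoters. AP-1 stands at 14.5% at outside centres against 6.97% at inside centres.

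As a check of the label, peaks over the exons of Ezh1 (chr11:101191115-101226463), where DNA of a tagged coding sequence would align, were counted. They were present in 1 of 72 libraries, HA-EZH1 at 20 h replicate 1 (fold 2.88), and in 0 of the 3 HA-EZH1 libraries of 24 h. No Bio-EZH1 library had such a peak, although by the study's methods those cells express a tagged Ezh1 construct. The check thus missed a construct even there, and the lists give no sign by which one could be recognized.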

How the data were processed

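ChIP-seq peak lists of C2C12 were used. The authors aligned reads with BWA 0.7.17 to mm10 and BDGP6, removed duplicates with Picard, filtered with SAMtools 1.7 and called peaks per library with MACS2 2.2.4 (versions per the labels). The lists are filtered by a step not given in the sources used here, with q up to 0.05 (narrow peaks) or 0.1 (H3K27me3, broad). Deposited values are the fold, a ratio to the MACS2 background, and p- and q-values as -log10. Read depth is unknown, so no counting interval was computed. The 6 input samples have no list here.

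Intervals on 19 autosomes and X were compared in Python 3.11.15 (pandas, numpy), with genes of GENCODE M21 and bases of GRCm38.p6, the assembly of mm10, read with pysam. Exact tests were two-sided over libraries or time-point means, adjusted by Benjamini-Hochberg, and were tested on simulated data. P-values measure the spread between these samples. Named are, for each class, the 12 strongest regions, the 12 strongest within 3 kb of a protein-coding TSS, and up to 5 members of each list or its closest member; genes with the most nearest regions were named after their values were seen. Alternatives were stricter or fewer peaks, other overlaps, regions, TSS definitions and replicates, and those chosen after seeing the data were the mean fold and leaving out chromosomes 8 and 15. The members and lists were chosen with earlier results of these data known.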

Additional observations from a re-analysis of the deposited data

How the results depend on the processing

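No result turned its direction. The share of HA-EZH1 regions inside H3K27me3 (11.7%) became 10.3% with H3K27me3 peaks of q under 0.01, 10.1% over regions mostly free of soft-masked bases and 9.32% without chromosomes 8 and 15, and it ran from 11.3% to 12.2% when a replicate was left out, although the number of regions rose from 2090 to between 3446 and 3797 without an HA-EZH1 replicate. With HA-EZH1 and Bio-EZH1 peaks of q under 0.01, the differences inside minus outside over the 6 times passed for TSS share (-11.0 points), Bio-EZH1 overlap (57.0) and SUZ12 overlap (74.5), at an adjusted p of 0.0417 each (exact permutation test). Without chromosomes 8 and 15 they passed at the same p, with -10.8, 58.2 and 74.7. With the top 2000 peaks per library they were -15.8, 56.4 and 81.9, and the log2 fold difference was 0.0569, each at an adjusted p of 0.03125 (exact permutation test). The share inside at 24 h against other times passed with H3K27me3 peaks of q under 0.01 (-8.67 points, adjusted p = 0.0490, exact permutation test), and the Bio-EZH1 overlap at 24 h against other times with the top 2000 peaks (-45.1 points, adjusted p = 0.00613). The causes were not tested. For SUZ12 and Bio-EZH1 overlap, a difference above 0 inside minus outside came with the division itself. Annotated genes with a region within 3 kb of the TSS (35 inside, 272 outside) were 20 and 169 within 1 kb and 101 and 655 within 10 kb. Leaving out chromosomes 8 and 15, and the mean in place of the median of log2 fold, were chosen after seeing the data.

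Replicate numbers did not pair the samples, as correlations of same-numbered HA-EZH1 libraries ran from -0.0447 to 0.0568 over 15 pairs. With a replicate block the differences of 24 h from the other times had p = 0.0417 for the share inside (-7.60 points), 0.468 for log2 fold (-0.03), 0.125 for TSS share (12.1), 0.0463 for Bio-EZH1 overlap (-32.3) and 0.111 for SUZ12 overlap (-16.4), and HA-EZH1 against Bio-EZH1 had 0.25, the smallest possible (-74.5; exact permutation tests). No call changed. Read depth is unknown, so absence of a peak does not show absence of binding.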
